A study of Drosophila melanogaster with 25 samples.

Results

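The RNA levels of 10 genes that pattern Drosophila melanogaster tissues were followed across 25 RNA-seq libraries. The genes were picked by symbol from the 17208 genes of the deposited count tables: hedgehog (hh), patched (ptc), cubitus interruptus (ci) and engrailed (en) for Hedgehog signalling, decapentaplegic (dpp), thickveins (tkv), bifid (bi, also called omb) and spalt major (salm) for Dpp signalling, and wingless (wg) with frizzled 2 (fz2) for Wingless signalling. All 10 were present in both tables and all 10 passed the filter on low counts in every comparison.

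The study asks how RNA levels change when Fat, a very large cadherin encoded by fat (ft), is made more active or lost. For gain of activity, ubi-Gal4, which drives expression in most or all cells, was combined with UAS-FtICD-3xFLAG, the intracellular domain of Fat with a tag (genotype label Ubi>FtICD). These libraries came from embryos aged 16 to 20 h (4 FtICD, 4 wild type), from L3 wing discs (3 and 3) and from L3 eye-brain complexes (3 and 2), and share 1 count table. For loss, eye-brain complexes of ft fd5-5/ft X13 animals (genotype label Fd5-5, called ft null) were compared with wild type in a second table (3 and 3). Wild type was w1118 throughout, and animals were kept at 25 C. Wild-type animals carried neither the driver nor the transgene by their label, and a driver-only or UAS-only control was not analysed here. Larval age within L3 was not given, so stage and genotype cannot be told apart in the larval tissues. Replicates are numbered in the labels, which do not say whether they are separate animals or cultures, so the p-values measure the spread between these samples, which may be technical.

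Hedgehog is a secreted ligand made by posterior compartment cells, where the homeodomain protein Engrailed is active. In anterior cells Hedgehog binds Patched, which frees the transcription factor Cubitus interruptus to activate targets such as ptc itself and dpp along the compartment boundary. Dpp, a BMP ligand, then spreads through the wing disc, binds its type I receptor Thickveins and maintains bi and salm, while Wingless, a Wnt ligand from the dorsoventral boundary, acts through receptors of the Frizzled family.

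Total counts per library were 23642594 to 30046844 in embryos, 30886102 to 54256669 in wing discs, 30361047 to 41037756 in the eye-brain complexes of the FtICD table and 15016561 to 21001535 in the ft null table. Ribosomal RNA took 12.0 to 16.2% of the counts in FtICD embryos and 4.17 to 5.96% in wild-type embryos, 10.6 to 14.0% and 10.7 to 11.1% in wing discs, 4.37 to 9.93% and 11.2 to 14.9% in eye-brain complexes, and 0.470 to 0.735% and 0.946 to 1.44% in the ft null set. The lowest raw count of any of the 10 genes was 85, for hh in an FtICD embryo library. ft, the altered gene, was higher in FtICD libraries by 5.55 ± 0.16 (log2 fold change ± SE) in embryos, 4.74 ± 0.12 in wing discs and 5.02 ± 0.15 in eye-brain complexes, and its RNA was higher by 0.54 ± 0.07 in the ft null libraries. RNA of a mutant allele need not be lost, so the last value does not check that label. Wing discs expressed the defining wing genes: wild-type discs held 337 to 361 CPM (normalised counts scaled to a common library size) of ap and 51.9 to 86.5 CPM of vg. FtICD eye-brain replicate 3 stood apart with salivary gland and fat body RNA, its salivary gland markers summing to 11280 CPM where the other eye-brain libraries of that table held 8.07 to 39.1 CPM, so the 10 genes in FtICD eye-brain complexes are given with and without it. FtICD eye-brain replicate 1 held 0.175 unscaled CPM of roX2, a sex-linked RNA. The other eye-brain libraries of its table held 28.0 to 70.6 CPM. In wing discs roX2 was uneven too, at 48.8, 8.81 and 54.0 CPM with FtICD and 22.4, 18.9 and 5.88 in wild type. roX1 held 782 to 1247 CPM in the ft null and 1801 to 2121 in its wild type, where roX2 overlapped. In embryos roX1 held 723.5 to 780.5 CPM with FtICD and 382.5 to 498.1 in wild type. The part of sex in the levels of the 10 genes was not tested.

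Positions are those of the BDGP6.54 annotation. hh (FBgn0004644) is on 3R at 23128169 to 23141906 on the minus strand, and fz2 (FBgn0016797) on 3L at 19140975 to 19235373, also minus. ptc (FBgn0003892) is on 2R at 8649649 to 8665223 on the plus strand, and en (FBgn0000577) on 2R at 11524006 to 11528210 on the minus strand, 14310 bases from its paralogue inv. On 2L lie dpp (FBgn0000490) at 2428372 to 2459823 and wg (FBgn0284084) at 7307159 to 7316265, both on the plus strand. On the minus strand of 2L are tkv (FBgn0003716) at 5219000 to 5271384 and salm (FBgn0261648) at 11434311 to 11445614, which lies 60674 bases from its paralogue salr. wg is flanked within 50 kb by Wnt4, Wnt6 and Wnt10, at gaps of 29987, 17448 and 47113 bases. ci (FBgn0004859) is on chromosome 4 at 47710 to 57041 on the minus strand, and bi (FBgn0000179) on X at 4412856 to 4485647 on the plus strand. Exons of ci overlap the antisense asRNA:CR43957 by 53 bases, and exons of tkv overlap CR14033 by 158 bases and TpnC25D by 54 bases. The named library kit does not mark strand, and reads in those stretches cannot be told apart.

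Among the wild-type libraries of the FtICD table, the wing disc held the highest mean of 8 of the 10 genes, the embryo that of dpp and the eye-brain complex that of ptc. For bi and ptc the wing disc and eye-brain ranges overlapped, and for fz2 the lowest wing disc library lay just above the highest eye-brain library. The test between these tissues passed for none of bi, fz2 and ptc. This order does not carry over to the ft null table, whose eye-brain levels are given below. Levels between genes are compared as RPKM, which divides by the length of all annotated exons of a gene. tkv, the Dpp receptor, led in every tissue, with 88.2 ± 1.9 RPKM in wing discs (SD, n = 3), 39.0 ± 2.2 in eye-brain complexes (n = 2) and 21.7 ± 0.41 in embryos (n = 4). In wing discs tkv was followed by ci (58.9 ± 0.43 RPKM) and wg (48.8 ± 1.3), with no overlap between the ranges of these 3 genes. Next came hh (24.5 ± 1.1), bi (20.4 ± 6.5), en (18.1 ± 11.2), fz2 (16.5 ± 3.5) and salm (11.7 ± 2.3), and in that run each gene's range overlapped that of the next. ptc (8.27 ± 1.5 RPKM) lay below the range of salm, and dpp (3.68 ± 1.1) lay below that of ptc.

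The order changed between tissues. In embryos wg was second (12.0 ± 1.6 RPKM, n = 4) and hh last (2.60 ± 0.67). Between them ci, fz2, en, dpp, ptc and bi ran from 6.73 to 3.66 RPKM, each overlapping the next, and salm (2.68 ± 0.22) lay below bi and overlapped hh. In eye-brain complexes ci was second (33.3 ± 0.85 RPKM, n = 2), followed by bi (17.8 ± 4.3), then wg (12.9 ± 0.89) and fz2 (12.5 ± 1.6), whose ranges overlapped. ptc (8.84 ± 0.32), hh (7.22 ± 1.8) and salm (4.18 ± 0.70) came next with no overlap between neighbours, and dpp (1.93 ± 0.10) and en (1.57 ± 0.44) overlapped at the bottom.

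**Figure D1:**
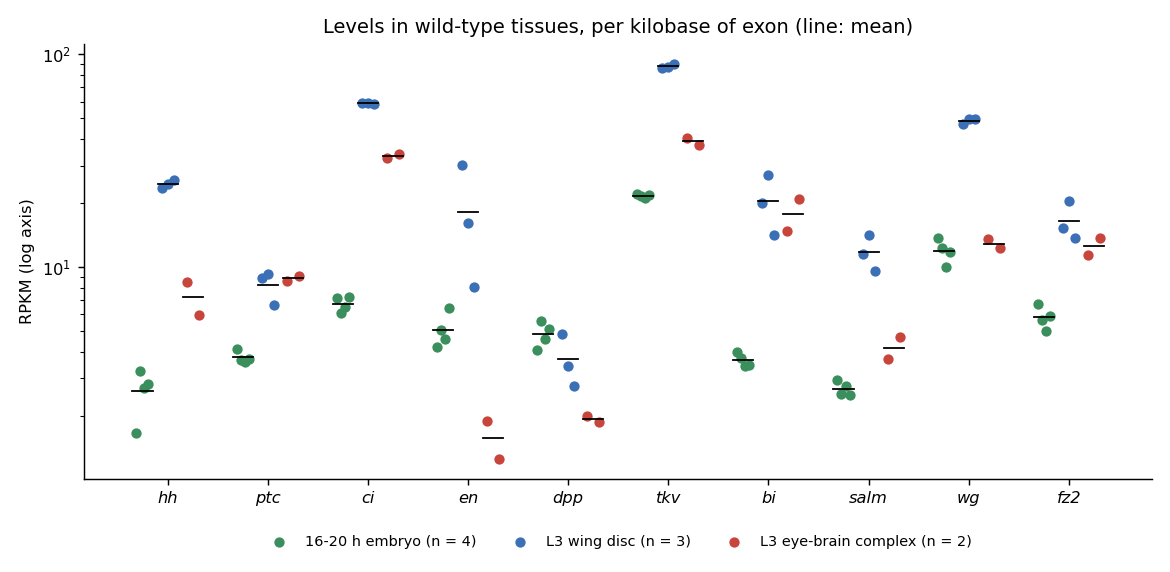
RPKM (log axis) of the 10 genes in each wild-type library of the FtICD table, with a line at the mean. tkv is highest in all 3 tissues. 8 genes have their highest mean in wing discs, though bi overlaps there with eye-brain complexes and fz2 lies only just above them. The genes en and dpp are lowest in the eye-brain complexes of this table.

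All genes but dpp, 9 of 10, rose from embryo to wing disc, by 1.13 (ptc) to 3.23 (hh) on the log2 scale, in a comparison where edgeR's quasi-likelihood test called 87.6% of all genes (36.7% higher and 50.8% lower) at a Benjamini-Hochberg adjusted p under 0.05. The median of all genes was -0.48 there, -0.41 with ribosomal RNA left out and -0.85 by DESeq2. The values may include a common shift, which was not tested. hh was higher by 3.23 ± 0.20 (SE, adjusted p = 6.9e-08), ci by 3.13 ± 0.08 (adjusted p = 1.7e-10) and bi by 2.48 ± 0.20 (adjusted p = 6.7e-07). dpp did not pass, at -0.40 ± 0.18 (adjusted p = 0.062), and passed as lower by RLE scaling (adjusted p = 0.02), by DESeq2 (0.012), without wild-type embryo replicate 1 (0.042) and without wild-type wing disc replicate 1 (0.0027). Embryos were sequenced on another instrument than discs, so tissue, stage and instrument cannot be told apart.

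Against the eye-brain complex, 7 of the 10 genes were higher in the wing disc and 0 lower by edgeR, with 0 lower also at an unadjusted p under 0.05 (background 50.1% called, 20.9% higher and 29.2% lower). en, expressed in posterior wing cells, was higher by 3.53 ± 0.51 (adjusted p = 2.2e-04), wg by 1.92 ± 0.13 (5.8e-07), hh by 1.76 ± 0.24 (1.2e-04) and salm by 1.49 ± 0.18 (4.8e-05). tkv, dpp and ci rose by 1.18, 0.93 and 0.82. ptc, bi and fz2 did not pass (adjusted p = 0.61, 0.53 and 0.087), and fz2 passed by RLE scaling (0.039) and DESeq2 (0.023). Comparing eye-brain complex with embryo, 7 genes were higher and 2 lower, en by -1.69 ± 0.47 and dpp by -1.33 ± 0.22, with 82.2% of all genes called (39.3% higher and 42.9% lower). The direction of these last 2 depended on the table: embryos held 9.91 to 15.1 CPM of en and 18.0 to 24.8 of dpp, below the wild-type eye-brain levels of the separately scaled ft null table.

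The wild-type eye-brain levels of 8 of the 10 genes did not overlap between the tables, and all 8 were higher in the ft null table. The share of all genes with such a gap was not computed, so this count is not a trait of the 10 genes. Wild-type eye-brain complexes held 11.3 and 11.7 unscaled CPM of dpp in the FtICD table and 44.3 to 58.1 in the ft null table. en held 4.08 and 5.88 CPM against 22.9 to 27.0, and fz2 94.7 and 118 against 492 to 518. For ptc they were 53.3 and 58.4 CPM against 163 to 184, for salm 25.3 and 33.4 against 108 to 116, and for bi 101 and 148 against 238 to 307. ci, at 207 and 223 against 361 to 478, and wg, at 41.8 and 44.3 against 56.3 to 62.9, did not overlap either. Only hh, at 16.4 and 22.6 against 16.4 to 17.8 CPM, and tkv, at 194 and 201 against 195 to 215, had overlapping ranges. Across these separately scaled tables, the ft null table's wild-type eye-brain levels of fz2, bi and salm lay above those of wild-type wing discs, and that of dpp above embryos. A set of 540 genes, defined after the values were seen, was at least 4-fold lower on average in 4 eye-brain libraries of the FtICD table (FtICD replicates 1 and 2 and both wild types) than in the ft null table, and it holds en, dpp and fz2. ptc and salm lay just outside it (log2 gaps of 1.98 and 1.93), while ci, bi, wg and tkv had gaps of 1.40, 1.05, 0.59 and 0.49 and hh one of -0.11. These 540 genes are called low-recovery genes below. The name stands for this gap only, since recovery of RNA was not measured and the tables also differ in instrument and depth. Tests were made only within a table.

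In FtICD wing discs the posterior genes hh and en were lower than in wild type and, by less, wg, while the receptors, transducers and Dpp targets among the 10 did not pass the test. 3 of the 10 genes were lower and 0 higher by edgeR (0 higher at an unadjusted p under 0.05 too), where 17.6% of all genes were called, 7.67% higher and 9.97% lower. The median of the 10 log2 fold changes was -0.15, and that of all genes 0.01. In these bulk samples fewer cells of a type and less RNA per cell cannot be told apart.

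hh, the ligand, held 28.2, 19.4 and 21.4 CPM in the FtICD discs and 63.4, 66.3 and 67.6 CPM in wild-type discs. Every FtICD disc library lay at under 30 CPM and every wild-type library above 60, with no overlap. The log2 fold change was -1.51 ± 0.15 (adjusted p = 0.001), a fold of 0.350, and without any single library the adjusted p stayed at 0.0077 or lower. hh was not among the low-recovery genes.

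en held 15.9, 13.2 and 16.7 CPM in FtICD discs, and 96.5, 51.3 and 25.2 CPM in wild-type discs. The groups did not overlap, but the wild-type libraries differed among themselves by far more than the FtICD libraries. The log2 fold change was -1.92 ± 0.44 (adjusted p = 0.026). Leaving out FtICD replicate 1, 2 or 3 (adjusted p = 0.063, 0.11 and 0.057) or wild-type replicate 2 (0.069) ended the call. Without wild-type replicate 1, the highest, the log2 fold change was -1.32 (adjusted p = 0.037), and across single left-out libraries it ran from -2.27 to -1.32. The median log2 CPM of the low-recovery genes, to which en belongs, ran 4.45, 4.001 and 3.48 in the wild-type discs, in the same order of libraries as en, and was 3.25, 3.13 and 3.19 in the FtICD discs. Its part in the fall of en was not tested. inv, the paralogue next to en that is expressed in the same cells, was lower too (log2 fold change -1.47 ± 0.25, adjusted p = 0.0092), with 14.7, 11.0 and 9.65 CPM against 37.4, 38.5 and 22.4, and is a low-recovery gene as well.

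The log2 ratio of hh to en in a library does not depend on its scaling. It was 0.83, 0.56 and 0.36 in FtICD discs and -0.61, 0.37 and 1.42 in wild-type discs. The wild-type range enclosed the FtICD range, and the means differed by 0.19 (exact two-sided permutation p = 0.8, where 3 against 3 libraries cannot give less than 0.1).

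wg held 135.8, 122.1 and 96.3 CPM in FtICD discs and 157.5, 165.8 and 161.4 CPM in wild-type discs. All FtICD libraries were lower than all wild-type libraries, by a log2 fold change of -0.45 ± 0.13 (adjusted p = 0.049). This call sat at the threshold: it was lost without FtICD replicate 2 (adjusted p = 0.12), without wild-type replicate 1 (0.12), 2 (0.14) or 3 (0.11). fz2, its receptor, held 96.3 to 142 CPM against 114 to 173, with overlap (log2 fold change -0.25 ± 0.19, adjusted p = 0.42).

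ptc, the Hedgehog receptor gene and target, held 46.1, 53.3 and 63.8 CPM in FtICD discs and 56.0, 58.9 and 40.7 in wild type, and ci, which transduces the signal, 331 to 400 against 368 to 382. The log2 fold change of ptc was 0.07 ± 0.17 (95% interval -0.34 to 0.48, adjusted p = 0.82) and that of ci -0.06 ± 0.09 (-0.27 to 0.15, adjusted p = 0.69). For dpp, at 17.5, 19.2 and 21.5 CPM against 28.8, 20.5 and 16.1, it was -0.17 ± 0.21 (-0.67 to 0.34, adjusted p = 0.64). The intervals of ptc, ci and dpp leave out a fall as large as that of hh, whose own interval ran from -1.86 to -1.17. dpp and fz2 are low-recovery genes, as en is, and neither passed.

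tkv held 408, 442 and 368 CPM in FtICD discs against 438, 445 and 447 (log2 fold change -0.13 ± 0.09, adjusted p = 0.36). The Dpp target bi held 108, 131 and 195 CPM against 139, 190 and 95.8, and salm 68.2, 69.4 and 110 against 80.2, 99.1 and 65.1. Both overlapped between the groups, with log2 fold changes of 0.03 ± 0.29 and 0.02 ± 0.23 (adjusted p = 0.95 and 0.96). Their 95% intervals, -0.66 to 0.72 and -0.52 to 0.56, are wide. salr, the paralogue beside salm, had a log2 fold change of -0.04 and did not pass.

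**Figure D2:**
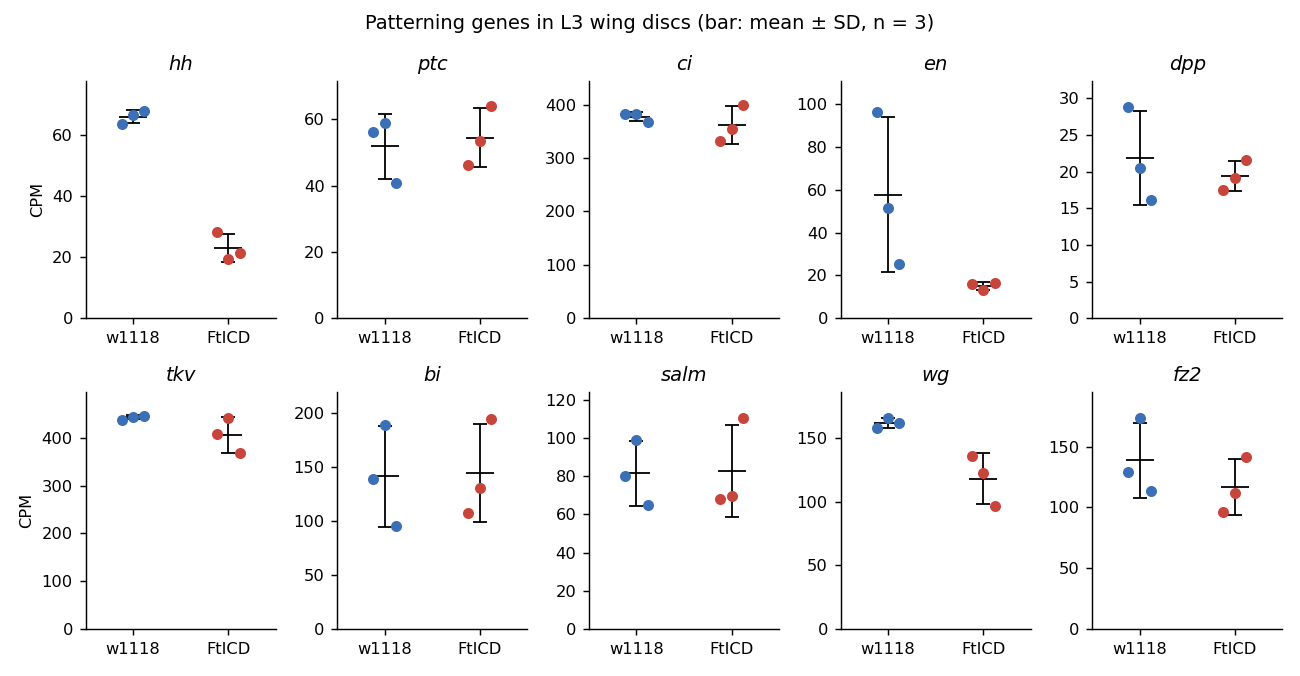
CPM of each gene in the 3 wild-type (blue) and 3 FtICD (red) wing disc libraries, with the mean and SD, each axis starting at 0. hh, en and wg do not overlap between the groups, and the other 7 genes do. The share of all genes without overlap was not computed, and the en and wg calls were lost without some single libraries.

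Other pathway genes in wing discs were read from lists of known components. Their counts stand beside the same background of 17.6% of all genes called, 7.67% higher and 9.97% lower. Among 12 further Hedgehog components, which carry, bind or transduce the ligand, 0 passed by edgeR, 1 was lower at an unadjusted p under 0.05 and 1 was lower by DESeq2. Of 19 tested Dpp components 3 were higher and 2 lower. magu, a secreted modulator of Dpp, was higher by 0.56 ± 0.09 (221 ± 11.3 against 150 ± 13.3 CPM, SD, n = 3, adjusted p = 0.007), and cv (0.63) and the type II receptor put (0.33) were higher too. The ubiquitin ligase gene Smurf was lower (-0.45 ± 0.09, adjusted p = 0.015), and so was Med, the co-Smad (-2.43 ± 0.58, adjusted p = 0.029), at 3.21 to 5.89 CPM against 8.10 to 43.1. Med and cv are low-recovery genes. The lower count was 0 without FtICD replicate 2 or wild-type replicate 1 and 1 without FtICD replicate 3 or wild-type replicate 2 or 3, and the higher count fell to 1 with the replicate number as a block.

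Of 25 tested Wingless components 7 were lower and 0 higher (0 higher at an unadjusted p under 0.05 and by DESeq2). 4 of these were other Wnt ligands. Wnt4, next to wg on 2L, held 6.99, 6.79 and 10.1 CPM against 19.7, 24.7 and 17.8 (log2 fold change -1.38 ± 0.21, adjusted p = 0.0059). Wnt6, on the other side of wg, held 36.1, 24.4 and 17.4 CPM against 56.3, 58.5 and 53.8 (-1.11 ± 0.24, adjusted p = 0.022). Wnt5 fell as well (adjusted p = 0.022), at 18.7 to 34.9 CPM against 48.0 to 59.9.

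FtICD and wild-type libraries did not overlap for Wnt4, Wnt5 or Wnt6, and none of the 3 is a low-recovery gene. Wnt2, which is in that set, held 1.96, 1.18 and 1.94 CPM against a wild type that itself spread over 30.8, 11.3 and 4.43 (-3.19 ± 0.69, adjusted p = 0.021). Wnt10 stayed at 0.445 to 1.33 CPM in the 6 libraries and did not pass. The other 3 were sens, a Wingless target at the margin (-1.29 ± 0.29, adjusted p = 0.023), the glypican gene dlp (-0.25 ± 0.07, adjusted p = 0.045) and the nuclear cofactor gene pygo (-1.08 ± 0.29, adjusted p = 0.042), the last a low-recovery gene. Across alternative settings and left-out libraries the count of lower Wingless components ran from 1 to 7. It was 2 without FtICD replicate 2, 4 without FtICD replicate 3, 3 without wild-type replicate 1 and 1 without wild-type replicate 2.

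Among 15 genes that mark regions of the wing disc, 5 were lower and 0 higher (1 higher at an unadjusted p under 0.05, 0 by DESeq2). Beside inv these were nub, of the pouch (63.8 to 105 CPM against 169 to 275, log2 fold change -1.56 ± 0.25, adjusted p = 0.0076), and the notum genes ara (-1.52 ± 0.28), pnr (-0.54 ± 0.09) and tup (-1.05 ± 0.28), with tup a low-recovery gene. ap, vg, rn, Dll, hth and tsh did not pass. Without FtICD replicate 2 the count of lower region genes was 3. Other cell types in the disc moved as well: 2 of 5 myoblast and muscle markers were lower and none higher, and their sum was 181 to 195 CPM in FtICD discs and 236 to 254 in wild type. Tracheal markers summed to 1362 to 1617 CPM against 1848 to 2041, with 0 of 5 called. Of 6 fat body markers 2 were higher (Lsp1alpha and Lsp1beta) and all 6 at an unadjusted p under 0.05, with a median log2 fold change of 3.45 and sums of 85.1 to 1103 CPM against 36.2 to 106. Without 1 library that count ran from 0 to 5. Of 6 salivary gland markers 1 was lower (Sgs4), with a median of -2.15 and sums of 3.12 to 23.3 CPM against 32.8 to 62.8. No marker of these 4 lists was at 0 in either group. Their part in the changes of hh, en and wg was not tested.

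**Figure D3:**
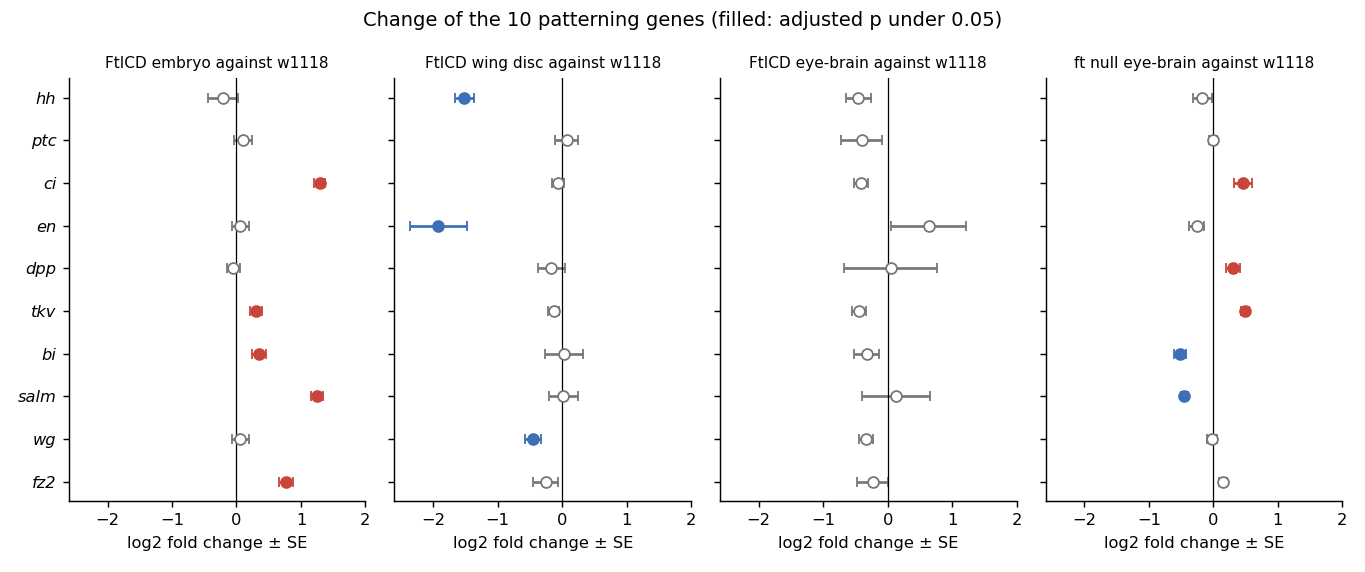
log2 fold change of the 10 genes against w1118 in each genotype comparison, with the SE. Filled points passed an adjusted p of 0.05 (red higher, blue lower): 5 higher in embryos, 3 lower in wing discs, none in FtICD eye-brain complexes, 3 higher and 2 lower in the ft null.

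In late embryos 5 of the 10 genes were higher with the same transgene, and the share called was near that of all genes. ci rose 2.45-fold and salm 2.38-fold, fz2 rose 1.70-fold, and tkv and bi rose slightly. The other 5 genes did not pass. With 5 of 10 genes higher and 0 lower (0 lower at an unadjusted p under 0.05), the share stood beside a background of 52.5% of all genes called, 26.7% higher and 25.8% lower. The median log2 fold change was 0.20 over the 10 genes and about 0 over all genes.

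ci, the transcription factor of the Hedgehog pathway, held 89.3, 76.1, 75.0 and 75.0 CPM in FtICD embryos and 34.1, 29.2, 31.1 and 34.3 CPM in wild type. salm held 37.3, 33.0, 30.7 and 31.1 CPM against 15.2, 13.1, 14.3 and 12.9. The lowest FtICD value was more than 2-fold above the highest wild-type value for both genes. The log2 fold changes were 1.29 ± 0.09 (adjusted p = 1.8e-06) and 1.25 ± 0.09 (adjusted p = 3.7e-06). fz2 held 71.2, 55.1, 56.4 and 64.7 CPM against 41.8, 35.7, 31.5 and 36.8, again without overlap (0.76 ± 0.11, adjusted p = 2e-04).

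tkv held 111.2, 82.7, 96.5 and 110.7 CPM against 79.4 to 82.5, a difference of 0.30 ± 0.09 on the log2 scale (adjusted p = 0.019). FtICD replicate 2 lay only just above the highest wild-type library. Leaving out FtICD replicate 4 (adjusted p = 0.058), or replicate 2 (0.055) or 3 (0.051) of the wild type, ended the call. bi held 28.3, 23.3, 19.8 and 24.8 CPM against 20.5, 19.4, 17.8 and 17.8, with overlap (0.35 ± 0.11, adjusted p = 0.021). It missed the threshold when FtICD replicate 1 (adjusted p = 0.055) or replicate 3 (0.058) or 4 (0.06) of the wild type was left out, and in a fit of all 19 libraries of the table (0.25).

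hh, ptc, en, dpp and wg overlapped between FtICD and wild-type embryos. hh held 3.60 to 6.08 CPM against 3.32 to 6.5 (log2 fold change -0.20 ± 0.23, adjusted p = 0.48). ptc, at 16.1 to 24.7 CPM against 16.8 to 19.2, differed by 0.10 ± 0.13 (adjusted p = 0.56). en (0.06 ± 0.13), dpp (-0.05 ± 0.10) and wg (0.06 ± 0.14) had adjusted p-values of 0.73, 0.7 and 0.73. For the 3 ligand genes the 95% intervals were -0.72 to 0.31 (hh), -0.28 to 0.18 (dpp) and -0.24 to 0.36 (wg).

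Within a library the log2 ratio of ptc to ci was lower in FtICD embryos, at -2.08 ± 0.17 against -0.87 ± 0.10 (SD, n = 4 each, exact permutation p = 0.0286). The log2 ratio of salm to dpp was higher by 1.29 (exact p = 0.0286). Both are the smallest p that 4 against 4 can give, and neither passed adjustment over the 16 ratio tests made (adjusted p = 0.229 for both).

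The counts among further pathway genes in embryos stand beside the same background of 52.5% of all genes called. Of 12 Hedgehog components 4 were higher and 3 lower. The receptor component gene smo (0.77 ± 0.11), the kinesin-like cos (0.88 ± 0.11), disp, needed to release the ligand (0.71 ± 0.09), and Pka-C1 (0.80 ± 0.09) were higher. shf (-1.29 ± 0.14), Su(fu) (-0.54 ± 0.10) and the kinase gene fu (-0.42 ± 0.12) were lower. Of 19 Dpp components 6 were higher, among them dally (0.56 ± 0.07), cv-2 (0.70 ± 0.09) and Dad (0.68 ± 0.12), the inhibitory Smad that Dpp signalling induces. The 3 that were lower were brk, a repressor that Dpp signalling itself represses (-1.04 ± 0.20, adjusted p = 0.0012), gbb (-0.55 ± 0.11) and Med (-0.47 ± 0.06).

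Of 25 Wingless components 9 were higher and 4 lower, a share near that of all genes. pan, the TCF transcription factor (0.94 ± 0.10, adjusted p = 3.8e-05), lgs (0.58 ± 0.08) and nkd, a feedback inhibitor (0.69 ± 0.12), were higher, and fz3 was lower (-0.57 ± 0.09). Among the 15 region genes 6 were higher and 2 lower, tsh (0.87 ± 0.08) and zfh2 (0.86 ± 0.11) among the higher. inv (-0.12) and salr (0.14), the neighbours of en and salm, did not pass, so salm rose where its paralogue did not pass. The difference between the paralogues was not tested.

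Markers of other cell types moved in the same libraries. 4 of 6 neuron markers were higher in FtICD embryos and none lower, with sums of 584 to 640 CPM against 462 to 514, and no marker was at 0. 4 of 6 haemocyte markers were higher and none lower (152 to 167 CPM against 127 to 133). All 3 haltere and leg disc markers were higher (137 to 164 CPM against 101 to 111), and so were 2 of 5 myoblast and muscle markers (htl by 0.96 and how by 0.75, sums of 310 to 371 CPM against 228 to 255). Of 4 tested eye disc markers 1, so, was lower (-0.85). Their part in the rise of ci, salm and fz2 was not tested. With ribosomal RNA left out of the totals the same 5 genes were called.

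**Figure D4:**
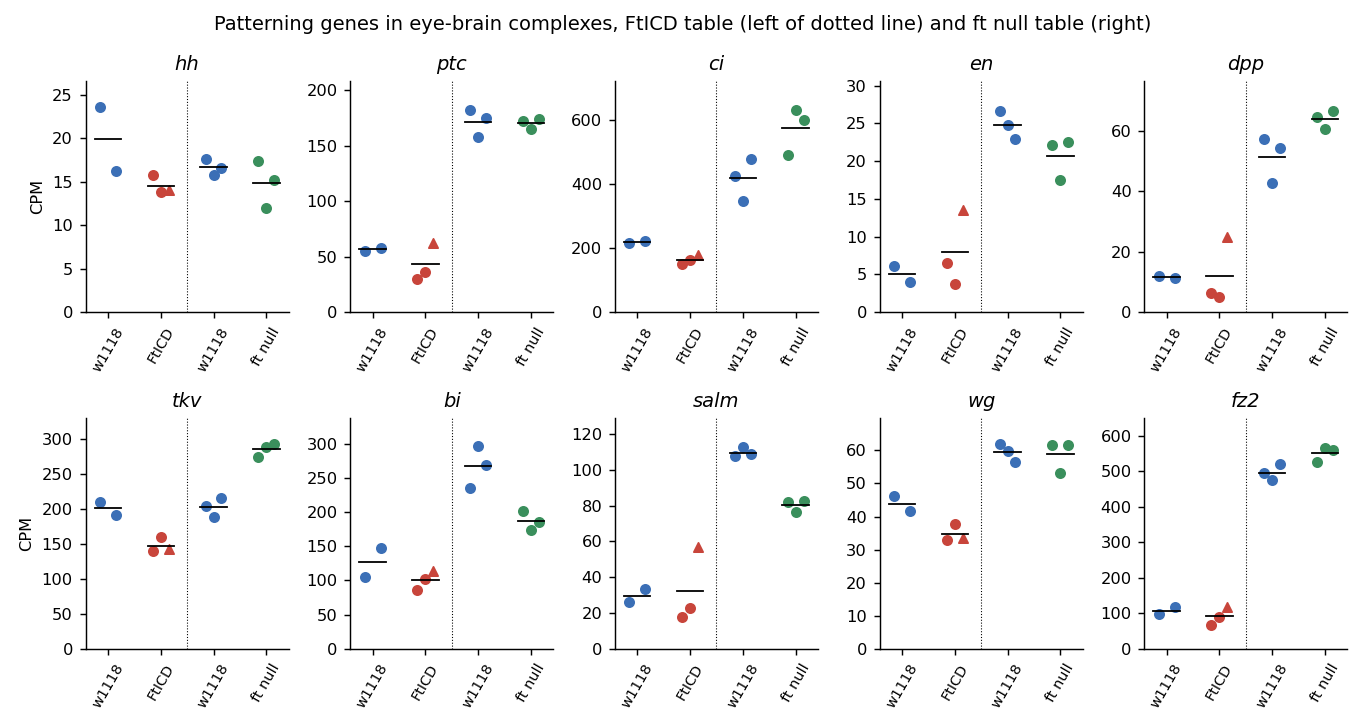
CPM of each gene in eye-brain libraries, with lines at group means, for the FtICD table left of the dotted line and the ft null table right of it; the tables were scaled separately. The triangle is FtICD replicate 3, which lies highest of its group for ptc, ci, en, dpp, bi, salm and fz2.

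In eye-brain complexes with FtICD, 0 of the 10 genes passed by edgeR, 3 (ci, tkv and wg) were lower at an unadjusted p under 0.05, and DESeq2 called 2 (ci and tkv, lower). The background was 4.22% of all genes called, 3.15% higher and 1.08% lower, and the median log2 fold change was -0.33 over the 10 genes and 0.01 over all. tkv held 140, 160 and 144 CPM in FtICD libraries and 210 and 192 in wild type (log2 fold change -0.45 ± 0.11, adjusted p = 0.094). ci held 152, 163 and 178 CPM against 215 and 222 (-0.41 ± 0.11, adjusted p = 0.11). Neither gene overlapped between the groups. wg, at 33.0 to 37.7 CPM against 46.1 and 41.5, did not overlap either (-0.34 ± 0.11, adjusted p = 0.17).

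FtICD replicate 3 set the values of several genes. dpp held 6.39, 5.14 and 24.8 CPM in FtICD replicates 1 to 3, against 12.2 and 11.3 in wild type, and salm 17.6, 23.0 and 56.9 against 26.3 and 33.2. In replicates 1 and 2 both genes were below wild type, and in replicate 3 both were above it. With all 3 libraries the log2 fold change of dpp was 0.05 ± 0.72 (adjusted p = 0.98), and that of salm 0.13 ± 0.53 (adjusted p = 0.91). Without replicate 3, ptc (-0.77, adjusted p = 0.026), ci (-0.47, adjusted p = 0.03) and dpp (-1.02, adjusted p = 0.036) passed as lower, and en went from 0.63 ± 0.59 to 0.003243. The other 6 did not pass without it: tkv was at -0.42 (adjusted p = 0.065), wg at -0.31 (0.19), hh at -0.43 (0.26), bi at -0.42 (0.21), salm at -0.55 (0.15) and fz2 at -0.45 (0.14). That left 2 libraries a group. The sum of salivary gland markers in replicate 3 is given above, and its log2 gap to the ft null table differed too. This gap was 1.14 for dpp, 0.66 for en, 0.67 for salm and 1.39 for ptc in replicate 3. In the other eye-brain libraries of the FtICD table it was 2.74, 2.09, 1.93 and 1.98. In replicate 3 it was also smaller for bi and fz2, about equal for ci and larger for hh, tkv and wg. The part of either difference was not tested.

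hh held 15.8, 13.8 and 14.0 CPM in FtICD eye-brain complexes and 23.6 and 16.3 in wild type (-0.45 ± 0.20, adjusted p = 0.25), and the groups did not overlap. bi (-0.33 ± 0.19) and fz2 (-0.23 ± 0.24) did not pass (adjusted p = 0.36 and 0.59). Of the pathway lists, 0 of 12 Hedgehog components passed by edgeR (3 lower at an unadjusted p under 0.05, 2 lower by DESeq2), 0 of 19 Dpp components passed (6 at an unadjusted p, 3 by DESeq2), and 2 of 25 Wingless components were higher. These were Wnt5 (1.54 ± 0.24, adjusted p = 0.038) and arm, the beta-catenin gene (1.30 ± 0.23, adjusted p = 0.046). Of the region genes hth was lower (-0.80 ± 0.14, adjusted p = 0.049). The Wingless count fell to 0 without FtICD replicate 1 or either wild-type library and to 1 without FtICD replicate 2. Without those same libraries, and with no filter on low counts, 0 region genes were lower. Without FtICD replicate 3 there were 3 Wingless components higher, 2 Hedgehog components lower and 0 Dpp components called.

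Loss of ft in eye-brain complexes went with higher tkv, ci and dpp and lower bi and salm. 3 of the 10 genes were higher and 2 lower, where 44.5% of all genes were called, 23.5% higher and 21.0% lower, and the medians were -0.01 over the 10 and 0.00 over all genes. The tkv, bi and salm calls held without any single library. The dpp call sat at the threshold and the ci call depended on single libraries, as given next.

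tkv held 275, 289 and 293 CPM in ft null libraries and 205, 189 and 216 in wild type, with no overlap (log2 fold change 0.49 ± 0.06, adjusted p = 9.1e-04). ci held 490, 632 and 601 CPM against 426, 349 and 479, and the lowest ft null library lay just above the highest wild type (0.46 ± 0.13, adjusted p = 0.026). The ci call was lost without ft null replicate 2 (adjusted p = 0.086) or 3 (0.089) or wild-type replicate 1 (0.064). dpp held 64.5, 60.5 and 66.5 CPM against 57.4, 42.8 and 54.5. It did not overlap but sat at the threshold (0.31 ± 0.11, adjusted p = 0.049), and its call was lost by RLE scaling (0.065), by DESeq2 (0.059) and with ribosomal RNA left out (0.066). Without wild-type replicate 2 the log2 fold change of dpp was 0.17 (adjusted p = 0.061), and it was also lost without ft null replicate 1 (0.11), 2 (0.071) or 3 (0.14) or wild-type replicate 3 (0.067).

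bi held 201, 174 and 186 CPM in the ft null against 234, 297 and 269 (-0.51 ± 0.10, adjusted p = 0.0041). salm held 82.0, 76.3 and 82.8 CPM against 108, 113 and 109 (-0.45 ± 0.06, adjusted p = 7e-04). Neither overlapped, and both calls held without any single library, with adjusted p-values up to 0.022 for bi and 0.0054 for salm. The log2 ratio of bi to dpp differed by -0.83, that of salm to dpp by -0.77 and that of ptc to ci by -0.47. Each had an exact permutation p of 0.1, the smallest that 3 against 3 allows. None passed adjustment over the 16 ratio tests made (adjusted p = 0.267 for each).

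The ligands hh and wg did not pass in the ft null. hh held 17.3, 12.0 and 15.2 CPM against 17.6, 15.8 and 16.6 (-0.17 ± 0.14, adjusted p = 0.37). wg held 61.7, 53.0 and 61.6 CPM against 62.0, 59.7 and 56.5 (-0.02 ± 0.08, 95% interval -0.19 to 0.16, adjusted p = 0.87). ptc, at 165 to 174 against 158 to 182 CPM, had a log2 fold change of -0.01 ± 0.07 (95% interval -0.16 to 0.15, adjusted p = 0.94). en (-0.26 ± 0.12, adjusted p = 0.11) and fz2 (0.15 ± 0.06, adjusted p = 0.078) did not pass either.

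Further Dpp components moved mostly upward in the ft null. 14 of 19 were higher and 0 lower by edgeR (2 lower at an unadjusted p under 0.05, 0 lower by DESeq2), with a median log2 fold change of 0.42 beside 0.00 over all genes. The background was 44.5% of all genes called, 23.5% higher and 21.0% lower. tld, a protease that frees BMP ligands from Sog, was highest in fold (46.8 ± 0.77 against 16.0 ± 0.78 CPM, SD, n = 3, 1.55 ± 0.07, adjusted p = 1.7e-05). sog itself, a BMP antagonist, rose to 99.3 ± 2.5 from 49.6 ± 1.3 CPM (adjusted p = 2.8e-05), magu rose by 0.95 ± 0.05 on the log2 scale and the repressor gene brk by 0.83 ± 0.06 (144 ± 6.6 against 81.0 ± 2.9 CPM, adjusted p = 6.7e-05). Positive components such as Mad (0.42) and gbb (0.60) and the antagonist genes sog and brk were thus on the same side. Across alternative settings and left-out libraries the count of higher Dpp components ran from 11 to 14.

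The counts among further Hedgehog and Wingless components stand beside the same background of 44.5% of all genes called. Of 12 further Hedgehog components 8 were higher and 2 lower. boi, a co-receptor gene, rose 2.13-fold (172 ± 9.4 against 80.9 ± 5.7 CPM, 1.09 ± 0.07, adjusted p = 5.7e-05), and rasp (0.45), cos (0.39) and fu (0.30) were higher, while Pka-C1 (-0.42) and rdx (-0.19) were lower. Without ft null replicate 1, 2 or 3 or wild-type replicate 1 or 3 the count of lower Hedgehog components was 1. Of 25 Wingless components 9 were higher, among them Apc2 (0.57 ± 0.06, adjusted p = 3.2e-04) and fz4 (0.51 ± 0.07, adjusted p = 9.3e-04), and 4 were lower. The 4 were nkd (-0.48 ± 0.06, adjusted p = 5.5e-04), pan (-0.48 ± 0.09, adjusted p = 0.005), sens (-1.57 ± 0.23, adjusted p = 0.0016) and fz3 (-0.44 ± 0.11, adjusted p = 0.013). Without wild-type replicate 2 there were 7. Of the 15 region genes 3 were lower and 1 higher, the latter count being 0 without ft null replicate 1 or 3 or wild-type replicate 1.

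Cell type markers differed in the same libraries. All 6 neuron markers were lower in the ft null, their sum being 1088 to 1103 CPM against 1494 to 1653. Of 5 eye disc markers 4 were lower and 1 higher (405 to 431 against 543 to 595 CPM). All 6 haemocyte markers were higher (363 to 459 against 126 to 150 CPM), and of 5 tracheal markers 2 were higher and 1 lower (1393 to 1433 against 753 to 841 CPM). 5 of 6 salivary gland markers were lower (median log2 fold change -2.56, sums of 3.21 to 11.5 against 23.7 to 57.6 CPM), as were all 3 haltere and leg disc markers (-0.68, 236 to 257 against 350 to 391 CPM). Of 6 fat body markers 1 was lower (53.2 to 63.3 against 65.8 to 357 CPM). No marker of these lists was at 0 in any group. The part of these shifts in the levels of tkv, ci, dpp, bi and salm was not tested.

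**Figure D5:**
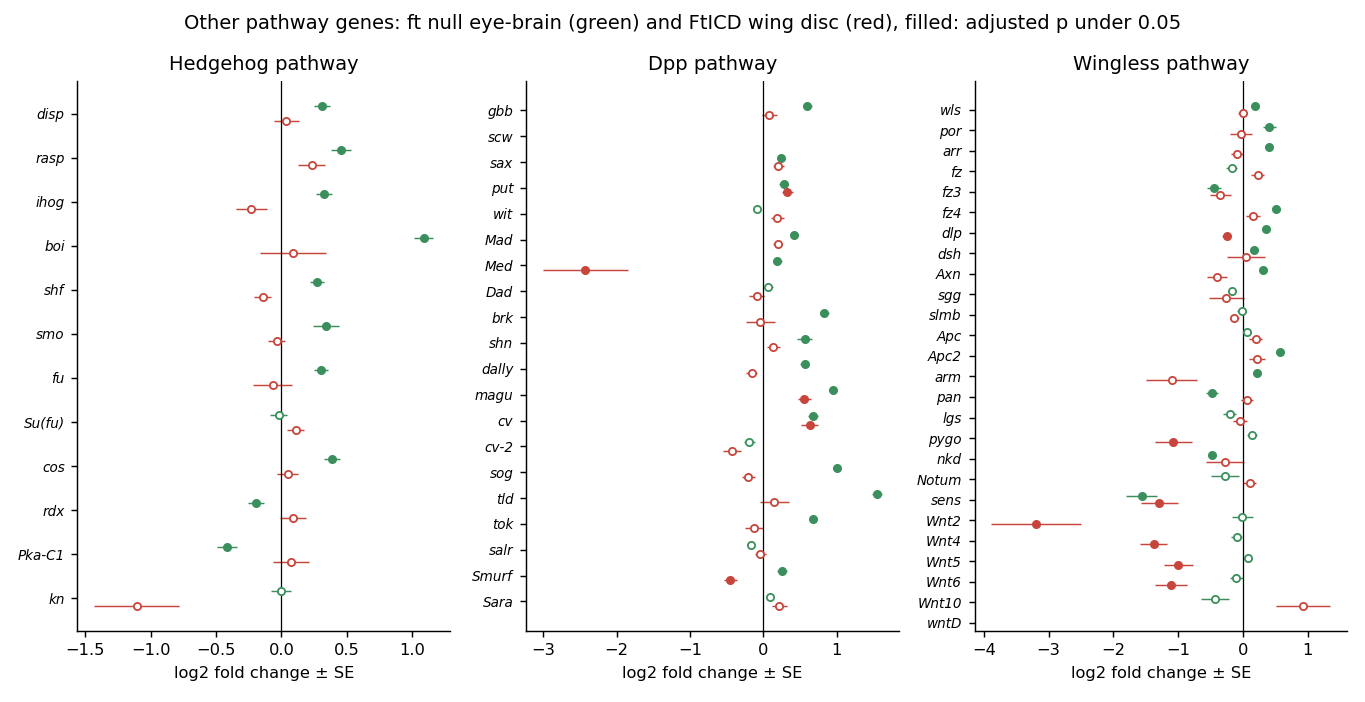
log2 fold change (± SE) of listed genes of the 3 pathways that are not among the 10, in the ft null eye-brain complex (green) and the FtICD wing disc (red), filled where the adjusted p was under 0.05. 14 called Dpp components lie to the right in the ft null, where 23.5% of all genes were called higher. In FtICD wing discs 7 called Wingless components, 4 of them Wnt ligands, lie to the left, where 9.97% of all genes were called lower.

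The responses to FtICD differed between tissues when the difference itself was tested as an interaction. The effect in wing discs was below that in embryos for 6 of the 10 genes and above it for 0 (0 above at an unadjusted p under 0.05), with 27.7% of all genes called in either direction. ci differed by -1.31 ± 0.12 (adjusted p = 1.7e-06), hh by -1.27 ± 0.30 (0.0055), en by -1.94 ± 0.55 (0.014), fz2 by -0.97 ± 0.25 (0.0089), salm by -1.19 ± 0.40 (0.038) and tkv by -0.39 ± 0.13 (0.039). The calls of tkv and salm were lost by RLE scaling (0.085 and 0.052) and without most single libraries, that of en without wild-type wing disc replicate 1 (-1.35, adjusted p = 0.057). wg, at -0.47 ± 0.19, did not pass (0.08).

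The eye-brain effect was below the embryo effect for 3 genes, ci (-1.70 ± 0.12, adjusted p = 7.2e-07), tkv (-0.74 ± 0.14, 0.0014) and fz2 (-0.99 ± 0.27, 0.012), with 28.2% of all genes called. Between eye-brain complex and wing disc 1 gene passed, en (2.50 ± 0.64, adjusted p = 0.015), with 12.0% of all genes called, and this call was lost without wild-type eye-brain replicate 2 (2.24, adjusted p = 0.1). hh differed there by 1.03 ± 0.34 (adjusted p = 0.058) and passed by DESeq2 (0.025) and with ribosomal RNA left out (0.048). Without FtICD eye-brain replicate 3 the eye-brain effect was below the embryo effect for 6 genes, ptc (-0.84, adjusted p = 0.019), dpp (-0.94, 0.016) and salm (-1.77, 3.9e-04) joining ci, tkv and fz2. Against the wing disc en (1.91, 0.038) and ptc (-0.85, 0.042) then passed. These comparisons share the embryo or wing disc libraries.

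Loss and gain of Fat in eye-brain complexes differed for 2 genes, where 17.2% of all genes were called. The ft null effect exceeded the FtICD effect for tkv by 0.98 ± 0.13 (adjusted p = 0.001) and for ci by 0.92 ± 0.20 (adjusted p = 0.014). tkv was at 0.49 in the ft null and -0.45 with FtICD, and ci at 0.46 and -0.41. Without FtICD replicate 3, ptc (0.75, adjusted p = 0.0031), dpp (1.32, 0.0014) and fz2 (0.59, 0.033) passed as well. Table, instrument and genotype pair cannot be told apart in that test.

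The genes whose log2(CPM + 1) followed the 3 ligands most closely across the 19 libraries of the FtICD table were found among 9015 genes. For hh these were CaBP1 (Pearson r 0.981), CG11835 (0.976) and tut (0.967). For wg they were Him (0.980), caup (0.978) and CG4382 (0.977), and for dpp bs (0.926), yellow-e (0.921) and dve (0.880). The libraries fall into 3 tissues, and these values describe tissue levels above all.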

How the data were processed

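RNA-seq of 25 libraries was used. Per the labels' protocols, cDNA came from 10 ng of total RNA (SMARTer Ultra Low kit) and was sequenced on a NovaSeq X Plus (embryos, ft null set) or NovaSeq 6000 (wing discs, FtICD eye-brain set). The deposited values are estimated counts, treated here like expected counts of each gene without scaling. The submitters' processing notes list Salmon 1.80, Trimmomatic 0.33, FastQC 0.10 and edgeR, plus the build dm6, and no settings. Values were rounded to whole counts, since 31.8% of those above 0 were fractional (tolerance 1e-06). The BDGP6.54 annotation of Ensembl release 115 placed 17083 of 17208 genes by their gene identifiers. No library pair within a group was a duplicate (28 pairs, lowest chi-square per degree of freedom 7.96).

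In R 4.3.3 with edgeR 4.0.16, genes were filtered with filterByExpr (minimum count 10), library sizes were scaled with TMM, and the quasi-likelihood F test of edgeR (two-sided) was applied to the libraries of each comparison, with Benjamini-Hochberg adjustment over all genes tested (threshold 0.05) and no replicate block. All adjusted p-values in the text are from this test unless named otherwise. Wild-type tissues were compared in 1 fit of 9 libraries, and effects between tissues or genotypes as interaction terms. CPM and RPKM use TMM-scaled library sizes, unscaled CPM the plain totals. Ratios were tested by exact permutation of libraries. Biological coefficients of variation were 14.9% for embryos, 20.6% for wing discs, 33.7% for the FtICD eye-brain set and 11.9% for the ft null set. Alternatives were RLE scaling, DESeq2 1.42.0, no filter, a replicate block, ribosomal RNA left out, values not rounded, a fit of all 19 FtICD table libraries and leaving out each library. The procedure was tested on simulated data.

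The 10 genes and the gene lists were chosen with earlier results of these data known. All 10 genes, ft, inv and salr were to be named, plus, from each list and comparison, up to 4 called genes of smallest adjusted p with a mean of at least 5 CPM. Other list genes were named after their values were seen, as members of a counted group. Low-recovery genes have a mean above 5 CPM in the ft null table and a mean log2(CPM + 0.5) at least 2 above the mean of the 4 named eye-brain libraries. Sequences were not used here.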

Additional observations from a re-analysis of the deposited data

Results flagged for a closer look

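In FtICD embryos the ci value of replicate 1, 89.28 CPM, stood apart from the other 3 replicates, which lay at 75.0 to 76.1 CPM. It was the only such library among 28 groups examined (the 10 genes and 4 log2 ratios, each in FtICD and wild-type embryos), and chance gives about 1 in 20. All 4 values lie above every wild-type value.

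Differences between effects that passed as interactions (edgeR's quasi-likelihood test, difference of log2 fold changes) are listed by contrast. Wing disc minus embryo gave -1.27 for hh, -1.313 for ci, -1.941 for en, -0.3901 for tkv, -1.187 for salm and -0.9732 for fz2. Eye-brain minus embryo gave -1.697 for ci, -0.7381 for tkv and -0.991 for fz2. Eye-brain minus wing disc gave 2.505 for en. The ft null effect minus the FtICD effect gave 0.9181 for ci and 0.9831 for tkv. Tissue and instrument differ together in the contrasts with embryos, and table and genotype pair in the last, so these cannot be told apart.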

How the results depend on the processing

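The counts of called genes among the 10 were 5 in embryos, 3 in wing discs, 0 in FtICD eye-brain complexes and 5 in the ft null. Leaving out each library gave 3 to 5, 1 to 2, 0 to 3 and 3 to 4 in turn. It gave 9 to 10 for wild-type wing disc against embryo, 7 to 8 for wing disc against eye-brain and 9 to 9 for eye-brain against embryo, and 3 to 6, 2 to 6, 0 to 2 and 2 to 5 for the interactions wing disc minus embryo, eye-brain minus embryo, eye-brain minus wing disc and ft null minus FtICD. In FtICD eye-brain complexes DESeq2 gave 2, the fit of all 19 libraries 2 and the replicate block 5. For eye-brain minus wing disc, RLE scaling gave 2, DESeq2 3 and leaving out ribosomal RNA 2. Over all genes, 458 were called in FtICD eye-brain complexes, 1768 by DESeq2, 1725 in the fit of 19 libraries and 8 to 865 without 1 library; the wing disc count of 1661 fell to as few as 872. The cause was not tested.

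The labels do not say whether equal replicate numbers mark paired samples. Deviations of same-numbered libraries from their group means correlated from -0.21 to 0.23. With so few libraries a group these deviations constrain each other, so the correlations cannot decide on pairing. With the number as a block, which sets FtICD eye-brain replicate 3 aside because it has no partner, 1284 genes were called in FtICD eye-brain complexes, and the counts among the 10 were 6 for eye-brain minus embryo, 0 for eye-brain minus wing disc and 5 for ft null minus FtICD. The block turned dpp to -1.029 and salm to -0.5568 in FtICD eye-brain complexes, and without 1 library dpp there ran from -1.019 (without replicate 3) to 0.4135. Under the block wg in wing discs (adjusted p = 0.082) and ci in the ft null (0.051) did not pass.

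Of the log2 ratios, which pass no test, those of hh to en in wing discs ran from -0.3123 to 0.7015 without 1 library, ptc to ci from -0.008035 to 0.2337 in wing discs and from -0.3054 to 0.1103 in FtICD eye-brain complexes, bi to dpp from -0.03162 to 0.4349 and from -0.4325 to 0.6204, and salm to dpp from -0.08335 to 0.3118 and from -0.007607 to 0.493. The ratios in embryos and the ft null kept their sign. The lowest raw count of 85 and the 2 wild-type eye-brain libraries of the FtICD table limit the precision.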
